A study of Mus musculus with 17 samples.

Results

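The arrest and feedback targets of p53 described here were Cdkn1a, Mdm2, Ccng1, Btg2, Plk2, Plk3, Gadd45a, Zmat3, Ptp4a3 and Gtse1. They are 10 of the 31517 genes to which the deposited transcripts could be summed. They were taken from a named list of p53 targets, with no measured value in the rule. The choice was made with earlier results of these data known. RNA came from whole cerebella of C57BL/6 mice at postnatal day 3, and all mice carried Math1-Cre, a recombinase driven in granule neuron progenitors, the dividing cells of the outer cerebellar layer. The Atr-Bax-Bak libraries (n = 5) carried Atr-loxP/loxP, Bax-loxP/loxP and Bak--/-, and the Bax-Bak libraries (n = 4) carried Bax-loxP/loxP and Bak--/- without the loxP-flanked Atr. The Atr-p53 libraries (n = 5, of which 4 were deep enough to use) carried Atr-loxP/loxP and p53-loxP/loxP, and the p53 libraries (n = 3) carried p53-loxP/loxP alone. Atr is the checkpoint kinase of stalled replication forks, Bax and Bak are the effectors of mitochondrial cell death, and the design asks how Atr deletion changes RNA when cell death or p53 is removed. Atr, Bax and p53 were loxP-flanked, so cells outside the Math1 lineage keep them, whereas Bak was null in every cell. The labels name separate samples without saying whether litters differed, so the spread behind each p-value may be partly technical.

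p53 is a transcription factor that is stabilised after DNA damage and replication stress. One class of its targets stops the cell cycle: p21, the product of Cdkn1a, inhibits cyclin-dependent kinases. Another class feeds back on p53 itself, since Mdm2 is the ubiquitin ligase that marks p53 for degradation. In the neonatal cerebellum the granule neuron progenitors divide rapidly, and p53 is known to drive their death after DNA damage.

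Sequences are shown for 6 of the genes, because p53 is known to bind its targets at or near their starts. The search used the p53 consensus, a pair of 10-base repeats that reads alike on both strands, with a spacer of 0 or 1 base and at most 2 mismatches, none of them in the C and G that are fixed at the core of each repeat. Capitals mark the best match in each sequence. The Cdkn1a sequence (chr17:29090729-29090978, plus strand, GRCm38.p6, RefSeq) ends just before the upstream start of the gene at 29090979 and holds a match with 1 mismatch, 51 bases before that start. The Ccng1 sequence (chr11:40755312-40755536, minus strand, GRCm38.p6, RefSeq) holds a match with 1 mismatch, 195 bases before the RefSeq start at 40755286. The Gtse1 match (chr15:85859945-85859964, plus strand, GRCm38.p6, RefSeq) has 1 mismatch, lies across the RefSeq start and overlaps a second match at chr15:85859955-85859975. The Mdm2 sequence (chr10:117710023-117710272, minus strand, GRCm38, from GENCODE M21 transcripts) ends just before the start of the transcript Mdm2-209, in the first intron of Mdm2-201. It holds no match within the rule, and the capitals there mark its best stretch with those C and G kept, which has 3 mismatches. The Zmat3 sequence (chr3:32364301-32364380, minus strand, GRCm38, from GENCODE M21 transcripts) lies in the first intron and holds a match with 0 mismatches, 1328 bases from the start, overlapped by a second match with 2. The Ptp4a3 sequence (chr15:73749473-73749553, plus strand, GRCm38, from GENCODE M21 transcripts) holds a match with 1 mismatch in the first intron of the transcript Ptp4a3-201, 1129 bases after its start.
Cdkn1a: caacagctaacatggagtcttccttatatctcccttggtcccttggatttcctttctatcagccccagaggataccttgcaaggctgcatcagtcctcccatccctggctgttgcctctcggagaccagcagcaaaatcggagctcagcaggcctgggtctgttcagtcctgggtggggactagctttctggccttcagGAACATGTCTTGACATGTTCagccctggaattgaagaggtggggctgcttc
Ccng1: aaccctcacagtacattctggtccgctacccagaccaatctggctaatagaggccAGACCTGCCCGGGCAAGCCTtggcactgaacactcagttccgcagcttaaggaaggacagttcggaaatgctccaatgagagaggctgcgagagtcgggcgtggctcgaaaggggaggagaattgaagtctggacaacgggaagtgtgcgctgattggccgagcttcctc
Gtse1: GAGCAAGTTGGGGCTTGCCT
Mdm2: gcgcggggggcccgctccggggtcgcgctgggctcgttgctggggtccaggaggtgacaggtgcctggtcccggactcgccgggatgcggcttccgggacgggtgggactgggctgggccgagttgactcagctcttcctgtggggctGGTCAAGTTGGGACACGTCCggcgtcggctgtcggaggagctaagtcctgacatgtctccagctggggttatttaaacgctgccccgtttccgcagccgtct
Zmat3: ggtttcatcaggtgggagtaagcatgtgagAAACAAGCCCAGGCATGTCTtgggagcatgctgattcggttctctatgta
Ptp4a3: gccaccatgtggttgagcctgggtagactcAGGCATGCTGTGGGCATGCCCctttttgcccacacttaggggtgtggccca

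The RefSeq promoter table held windows of 300 bases, 250 before to 50 after a start, for 8 of the 10 genes. Matches were found in a window of Cdkn1a, Ccng1 and Gtse1, and not in those of Mdm2, Btg2, Plk2, Plk3 and Gadd45a. For Cdkn1a it was the window of the upstream start. The Cdkn1a window at the start at 29093769, which held nearly all of its counts, had 0 matches. Another Gtse1 window, of a start at 85859707, had 0 as well. Of all 32851 windows in the table, 224 (0.682%) held a match within the rule and 36 (0.11%) held one with at most 1 mismatch. With 3 mismatches allowed, as for the stretch shown from Mdm2, the share was 2.82%. Zmat3 and Ptp4a3 had no window in that table, and their matches were read from annotated transcripts that run through the intron. Retained-intron transcripts cut into stretches of 300 bases held a match with 0 mismatches in 6 of 104759 (0.00573%) and one within the rule in 706 (0.674%). The search of transcripts covered all 48 annotated for the 10 genes, far more sequence than 1 window, and 4 of them held a match. Gtse1-201 held one in an exon, with 2 mismatches, which is not shown. A match describes these letters and says nothing of binding, and no match says only that the letters are not in that window.

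Library totals were 42987953 to 100659645 estimated counts in 16 libraries. The remaining Atr-p53 library (replicate 3) held 13601 counts in all, with 0 to 4 counts for each of the 10 genes, and was left out of every value given here unless stated. Its title repeats the sample number of Atr-p53 replicate 1 with an added suffix, so both could be from the same animal. Bak1 RNA was nearly absent in the libraries labelled Bak--/-, at 0.435 ± 0.140 CPM (counts scaled to library size, SD, n = 5) in Atr-Bax-Bak and 0.365 ± 0.152 CPM (n = 4) in Bax-Bak libraries, against 38.3 ± 3.99 CPM (n = 4) in Atr-p53 and 39.6 ± 2.01 CPM (n = 3) in p53 libraries. Trp53 RNA, which encodes p53, was 38.5 ± 6.73 CPM in Atr-p53 and 37.6 ± 1.61 CPM in p53 libraries, against 69.5 ± 5.52 CPM in Atr-Bax-Bak and 68.8 ± 4.87 CPM in Bax-Bak libraries. Atr RNA was 40.0 ± 3.07 CPM in Atr-Bax-Bak and 43.4 ± 3.99 CPM in Bax-Bak libraries, so its level in whole tissue did not check the Atr labels. None of the 10 cerebellum markers was at 0 in any group. Atr-p53 replicate 2 was the highest of its group for Ccng1 and Mdm2. It was the lowest for Cdkn1a, Plk2, Plk3, Zmat3, Ptp4a3, Gtse1 and Trp53, so it lay at an edge for most of the 10 genes. Its gap did not pass Dixon's limit for an outlying value for Ccng1 or Gtse1. Tests of Ccng1 and Gtse1 are given with and without this library. Levels divided by transcript length are given with it only. The sample numbers of the Atr-Bax-Bak libraries belong to another series of numbers than those of the Bax-Bak libraries, so the number series and the genotype cannot be told apart.

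The first comparison set Atr-Bax-Bak against Bax-Bak libraries. Of the 10 arrest and feedback targets, 8 rose with Atr deletion in this background: Cdkn1a, Ptp4a3, Ccng1, Zmat3, Plk2, Btg2, Mdm2 and Gtse1, in order of size. Plk3 and Gadd45a did not pass the test, and none of the 10 fell. Of the 17425 genes tested, 44.5% passed edgeR's quasi-likelihood test (p adjusted by Benjamini and Hochberg), 22.5% higher and 22% lower, which is the background against which 8 of 10 stands. The same 8 genes had Atr-Bax-Bak libraries that lay wholly above the Bax-Bak libraries, as did 17.1% of all genes. The median log2 fold change was 0.96 over the 10 genes and 0.04 over all genes, and 3.67% of all genes rose at least 2-fold. In whole tissue, more RNA per cell and more cells that hold it cannot be told apart.

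Levels of cell type markers moved in the same comparison. Of 10 markers each, 6 of granule neuron progenitors were lower and 2 higher, with summed levels of 953.9 to 1123.7 CPM in Atr-Bax-Bak and 1399.8 to 1662.8 CPM in Bax-Bak libraries. For granule neurons, 5 of 10 were lower and 1 higher, with sums of 1561.4 to 2074.4 CPM in Atr-Bax-Bak and 2266.8 to 3124.0 CPM in Bax-Bak libraries. For astrocytes and Bergmann glia, 9 of 10 were higher and 1 lower (5495.8 to 6934.6 CPM in Atr-Bax-Bak and 4129.3 to 4622.9 CPM in Bax-Bak libraries). For microglia, 8 of 10 were higher and 0 lower (178.8 to 218.9 CPM in Atr-Bax-Bak and 124.4 to 164.7 CPM in Bax-Bak libraries). Purkinje cell markers were higher for 8 of 10 (4 to 8 over the alternatives), and those of GABAergic interneurons for 9 of 10. Oligodendrocyte markers were higher for 8 of 10 (4 to 9 over the alternatives) and lower for 1. Endothelial and pericyte markers were higher for 4 of 10 (1 to 6 over the alternatives) and erythroid markers for 1 of the 7 tested (0 to 2, with 0 to 5 lower). No marker of meninges passed the test (sums of 772.6 to 1019.6 CPM in Atr-Bax-Bak and 568.7 to 2363.7 CPM in Bax-Bak libraries), but 6 were higher with controls of number series 1842 alone and 9 lower with those of series 100019 alone. No marker of these lists was at 0 in either group. The part of these shifts in the targets' levels was not tested.

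The second comparison set Atr-p53 against p53 libraries. None of the 10 genes passed the same test, by edgeR's quasi-likelihood test or any alternative run, and none had an unadjusted p under 0.05 in edgeR's test. Here 0.0461% of 17361 genes (8 genes) were called at all, and 6.58% had an unadjusted p under the same threshold. The Atr-p53 and p53 libraries overlapped for all 10 genes, where 8.21% of all genes did not overlap. The median log2 fold change was -0.02 over the 10 genes and 0.01 over all genes. No marker of any cell type list passed the test in this comparison. Summed granule neuron markers were nonetheless at 1387.2 to 1871.9 CPM in Atr-p53 and 2004.3 to 2046.2 CPM in p53 libraries, and oligodendrocyte markers at 493.2 to 575.9 CPM in Atr-p53 and 587.0 to 850.1 CPM in p53 libraries. Neither pair of ranges overlapped. A simulation with 4 against 3 libraries recovered 68% of 1.5-fold and 100% of 3-fold changes. It gave every gene the same dispersion (0.015) and held 100 changed genes at each fold. Under those settings, changes the size of that of Cdkn1a in the first comparison were within reach and smaller ones only in part. Genes that vary more would be recovered less often, and Ccng1 and Gtse1 had an SD of 27.4% and 22.7% of the mean in Atr-p53 libraries.

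The difference between both Atr effects was then tested over the 16 libraries as an interaction. For 7 of the 10 genes, all those that rose except Gtse1, the Atr effect without p53 was lower than the Atr effect without Bax and Bak. Over all 18189 genes, 8.05% had a difference in this direction and 16.1% in either. The median difference was -1.09 (log2) over the 10 genes and -0.02 over all genes. These tests share libraries with both single comparisons, so they are another view of the same values and no separate evidence. Cell type markers differed in the same test: of 10 each, 7 were lower for astrocytes and Bergmann glia (median -0.59), oligodendrocytes (-1.36) and GABAergic interneurons (-0.67), 5 for Purkinje cells (-0.48) and 4 for microglia (-0.59). Their part in the targets' differences was not tested.

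**Figure D1:**
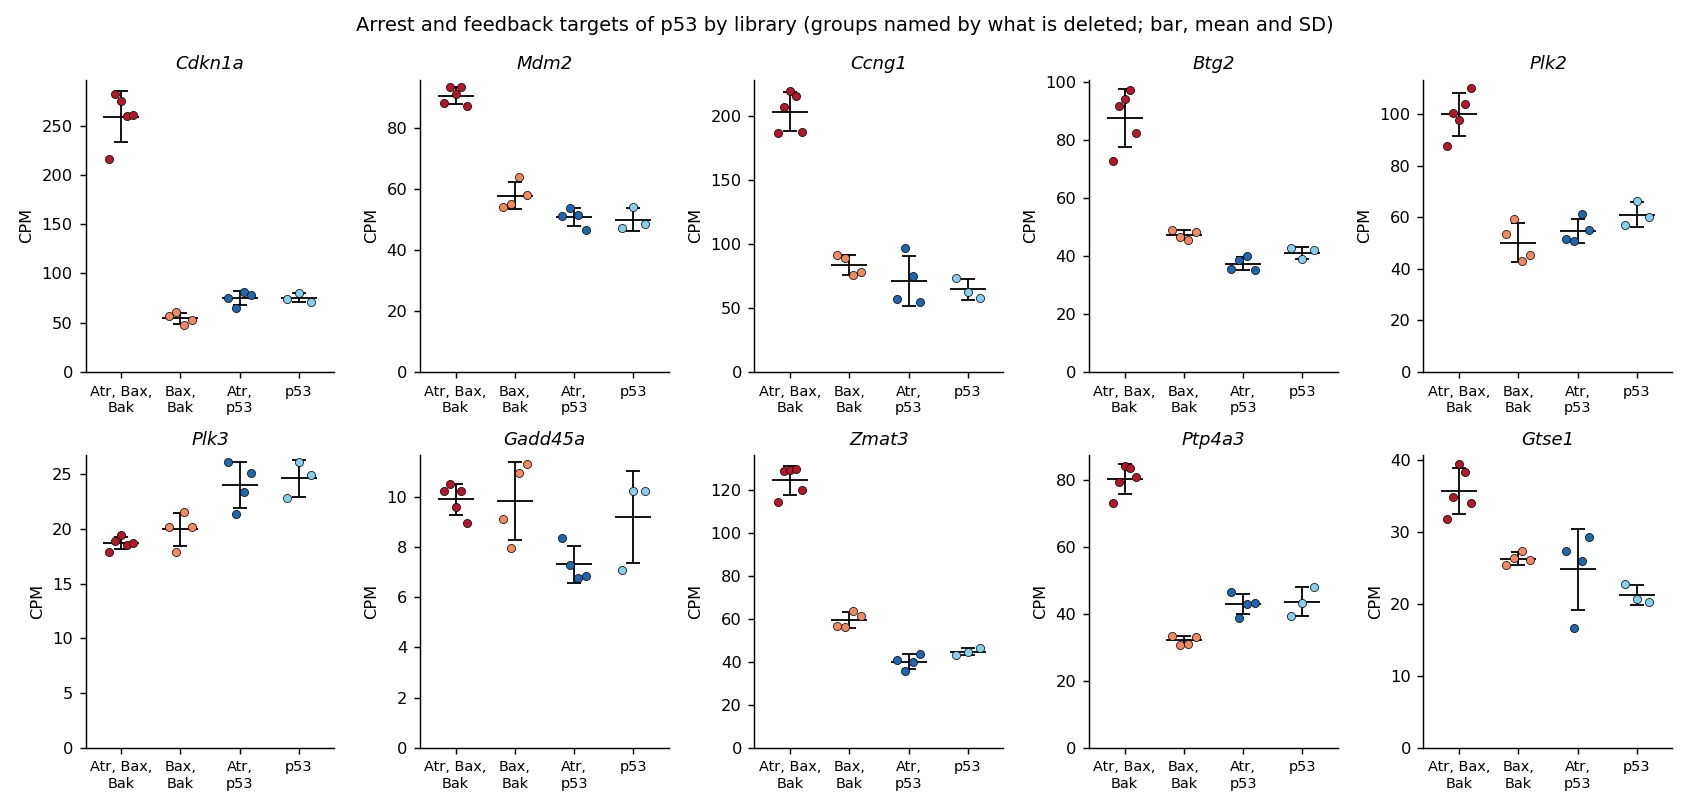
Level of each of the 10 genes in every deep library, in CPM on axes that start at 0, with Atr-Bax-Bak (n = 5), Bax-Bak (n = 4), Atr-p53 (n = 4) and p53 (n = 3) libraries side by side; each point is 1 library and the bars give the group mean and SD. For 8 genes the Atr-Bax-Bak points lie above all Bax-Bak points, while the Atr-p53 and p53 points overlap for all 10.

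Among the genes of arrest, Cdkn1a (ENSMUSG00000023067, chr17:29090976-29100727, plus strand, GRCm38) had the largest change. Its level was 216, 282, 275, 260.2 and 261 CPM in the Atr-Bax-Bak libraries, against 56.8, 61.2, 47.7 and 52.8 CPM in the Bax-Bak libraries. Every Atr-Bax-Bak library was more than 3-fold above every Bax-Bak library. This was a 4.80-fold rise (log2 fold change 2.26 ± 0.10, SE) with an adjusted p of 2.52e-07 by edgeR's quasi-likelihood test. In the p53 background the level was 75.6, 64.7, 80.8 and 78.2 CPM in Atr-p53 libraries and 74.6, 80.6 and 71.4 CPM in p53 libraries. These ranges overlapped, and the log2 fold change of -0.00 ± 0.10 had a 95% interval of -0.23 to 0.22. The difference of the effects was -2.26 ± 0.13 with an adjusted p of 1.18e-07 by edgeR's quasi-likelihood test, the smallest p of all 18189 genes.

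Btg2 (ENSMUSG00000020423, chr1:134075170-134079120, minus strand) encodes an antiproliferative protein that recruits deadenylases to mRNA. It stood at 72.6, 91.6, 94.1, 96.9 and 82.3 CPM in Atr-Bax-Bak libraries, against 48.9, 46.4, 45.5 and 48.3 CPM in Bax-Bak libraries. The lowest Atr-Bax-Bak library was well above the highest Bax-Bak library. This was a 1.87-fold rise, with a log2 fold change of 0.90 ± 0.08 and an adjusted p of 1.32e-05 (edgeR's quasi-likelihood test). Without p53 the values were 35.5, 38.6, 39.9 and 35.3 CPM in Atr-p53 libraries and 42.6, 38.8 and 41.9 CPM in p53 libraries. The groups met at their edges, and the log2 fold change was -0.13 ± 0.08 with an interval of -0.32 to 0.06. Between the backgrounds the Atr effect on Btg2 differed by -1.03 ± 0.11, with an adjusted p of 4.00e-05 (edgeR's quasi-likelihood test).

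Plk2 and Plk3 encode stress-responsive polo-like kinases, and they parted in these data. Plk2 (ENSMUSG00000021701, chr13:110395046-110400844, plus strand) stood at 87.6, 101, 97.8, 104 and 110.0 CPM in Atr-Bax-Bak libraries, against 53.4, 59.2, 43.0 and 45.2 CPM in Bax-Bak libraries. All 5 were above all 4, and the log2 fold change was 1.01 ± 0.10, a 2.02-fold rise with an adjusted p of 3.42e-05 (edgeR's quasi-likelihood test). Without p53, Plk2 stood at 51.8, 50.7, 61.3 and 55.1 CPM in Atr-p53 libraries and 56.9, 66.3 and 60.2 CPM in p53 libraries, with a log2 fold change of -0.15 ± 0.10 and an interval of -0.37 to 0.07. The Atr-p53 values lay lower on average, with 1 of them among the p53 values. The difference of its effects was -1.16 ± 0.14, with an adjusted p of 9.12e-05 (edgeR's quasi-likelihood test).

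Plk3 (ENSMUSG00000028680, chr4:117128655-117133963, minus strand) stood at 17.9, 18.9, 19.5, 18.5 and 18.7 CPM in Atr-Bax-Bak libraries, against 20.2, 17.9, 21.6 and 20.1 CPM in Bax-Bak libraries. The groups overlapped, with Bax-Bak replicate 2 at the low end. For Plk3 the log2 fold change was -0.08 ± 0.06 with an interval of -0.21 to 0.06 and an adjusted p of 0.340 (edgeR's quasi-likelihood test). Without Bax-Bak replicate 2 it was -0.16 with an adjusted p of 0.0462, and with controls of number series 1842 alone it was -0.19 with an adjusted p of 0.0301, so the call for Plk3 turned on which controls were used. Without p53 the values were 26.1, 21.4, 23.4 and 25.1 CPM in Atr-p53 libraries and 22.8, 26.1 and 25.0 CPM in p53 libraries. They overlapped almost wholly, with a log2 fold change of -0.03 ± 0.10 and an interval of -0.25 to 0.20. Between the backgrounds the Atr effect on Plk3 differed by 0.06 ± 0.11, with an adjusted p of 0.780 (edgeR's quasi-likelihood test).

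Gadd45a (ENSMUSG00000036390, chr6:67035096-67037457, minus strand), a stress protein that binds PCNA and activates stress kinases, was the lowest of the 10 genes in CPM. It stood at 10.2, 10.5, 9.61, 10.2 and 8.95 CPM in Atr-Bax-Bak libraries, against 9.13, 7.97, 10.9 and 11.3 CPM in Bax-Bak libraries. The Atr-Bax-Bak values lay inside the range of the Bax-Bak values. Gadd45a had a log2 fold change of 0.02 ± 0.11 with an interval of -0.21 to 0.26, which leaves out changes the size of those of the 8 genes that rose. Without p53, Gadd45a stood at 8.36, 7.27, 6.77 and 6.84 CPM in Atr-p53 libraries and 7.08, 10.2 and 10.2 CPM in p53 libraries. The Atr-p53 values were mostly lower, but p53 replicate 1 lay among them. The log2 fold change was -0.32 ± 0.16 with an interval of -0.69 to 0.05 and an adjusted p of 0.788, and the difference of the effects was -0.34 ± 0.19 with an adjusted p of 0.255 (both by edgeR's quasi-likelihood test). Over the alternatives the log2 fold change without p53 ran from -0.48 to 0.05.

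Of the genes of feedback, Mdm2 (ENSMUSG00000020184, chr10:117688875-117710758, minus strand) rose by less than most. It stood at 88.4, 93.4, 91.1, 93.4 and 87.1 CPM in Atr-Bax-Bak libraries, against 54.1, 55.1, 64.0 and 58.1 CPM in Bax-Bak libraries. The groups were far apart for their small spread, and the log2 fold change was 0.67 ± 0.05, a 1.59-fold rise with an adjusted p of 5.75e-06 (edgeR's quasi-likelihood test). Without p53, Mdm2 stood at 51.2, 53.7, 51.5 and 46.8 CPM in Atr-p53 libraries and 47.2, 54.2 and 48.4 CPM in p53 libraries, which overlapped. The log2 fold change there was 0.03 ± 0.09 with an interval of -0.16 to 0.23. The difference of the effects was -0.62 ± 0.09 with an adjusted p of 4.17e-04 (edgeR's quasi-likelihood test). These values depended on which Mdm2 transcripts were summed. With protein-coding transcripts alone the Atr effect without Bax and Bak was 0.20, and the difference of the effects was -0.04 with an adjusted p of 0.857 (edgeR's quasi-likelihood test).

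Ccng1 (ENSMUSG00000020326, chr11:40748552-40755311, minus strand) encodes cyclin G1, which acts with the phosphatase PP2A on Mdm2. Its level was 187, 207, 219.7, 215 and 188 CPM in Atr-Bax-Bak libraries, against 91.4, 89.1, 75.6 and 77.8 CPM in Bax-Bak libraries. Every Atr-Bax-Bak library was over 2-fold above every Bax-Bak library, and the log2 fold change was 1.30 ± 0.07, a 2.47-fold rise with an adjusted p of 1.02e-06 (edgeR's quasi-likelihood test). Without p53 the level was 57.1, 96.8, 74.6 and 54.9 CPM in Atr-p53 libraries and 73.3, 62.3 and 57.6 CPM in p53 libraries. Atr-p53 replicate 2 was the high value, and the others overlapped with the p53 libraries. The log2 fold change was 0.15 ± 0.19 with an interval of -0.28 to 0.57, and -0.04 without Atr-p53 replicate 2. The difference of the effects was -1.15 ± 0.21 with an adjusted p of 0.00190, and -1.34 with an adjusted p of 6.05e-05 without that library (edgeR's quasi-likelihood test).

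Gtse1 (ENSMUSG00000022385, chr15:85859745-85876573, plus strand) encodes a microtubule-associated protein of the G2 and M phases that moves p53 out of the nucleus. It stood at 31.9, 34.8, 39.5, 38.3 and 34.0 CPM in Atr-Bax-Bak libraries, against 25.4, 26.3, 27.4 and 26.1 CPM in Bax-Bak libraries. The groups did not overlap, but this was the smallest rise of the 8: the log2 fold change was 0.46 ± 0.07, a 1.37-fold rise with an adjusted p of 2.60e-04 (edgeR's quasi-likelihood test). Without p53 it stood at 27.4, 16.6, 25.9 and 29.3 CPM in Atr-p53 libraries and 22.8, 20.7 and 20.2 CPM in p53 libraries. Atr-p53 replicate 2 was below all p53 libraries and the other Atr-p53 libraries were above them. The log2 fold change was 0.24 ± 0.18 with an interval of -0.17 to 0.64, and 0.39 with an adjusted p of 0.305 without replicate 2. The difference of the effects was -0.22 ± 0.18 with an adjusted p of 0.466, and -0.07 without that library (edgeR's quasi-likelihood test), so a difference between the backgrounds was not shown for Gtse1.

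Zmat3 (ENSMUSG00000027663, chr3:32334792-32366014, minus strand) encodes a zinc finger protein that binds RNA. It stood at 115, 129, 129, 129.9 and 120.2 CPM in Atr-Bax-Bak libraries, against 56.7, 56.3, 63.7 and 61.7 CPM in Bax-Bak libraries. The groups were far apart, and the log2 fold change was 1.08 ± 0.05, a 2.12-fold rise with an adjusted p of 4.02e-07 (edgeR's quasi-likelihood test). Without p53 it stood at 41.1, 35.6, 39.8 and 43.9 CPM in Atr-p53 libraries and 43.1, 44.7 and 46.3 CPM in p53 libraries. All but the highest Atr-p53 library lay below the p53 libraries. The log2 fold change was -0.15 ± 0.09 with an interval of -0.36 to 0.06. For Zmat3 the effects differed by -1.22 ± 0.10 with an adjusted p of 1.53e-06 (edgeR's quasi-likelihood test).

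Ptp4a3 (ENSMUSG00000059895, chr15:73723145-73758766, plus strand) encodes the phosphatase PRL-3. It stood at 73.1, 79.3, 84.0, 83.5 and 80.8 CPM in Atr-Bax-Bak libraries, against 33.4, 30.5, 31.0 and 33.1 CPM in Bax-Bak libraries. Both groups were narrow and far apart, and the log2 fold change was 1.34 ± 0.05, a 2.53-fold rise with an adjusted p of 2.18e-07 (edgeR's quasi-likelihood test), which ranked 3 by p among the 17425 genes. Without p53 it stood at 46.4, 38.8, 43.0 and 43.3 CPM in Atr-p53 libraries and 39.4, 43.1 and 48.1 CPM in p53 libraries. These overlapped, with a log2 fold change of -0.01 ± 0.10 and an interval of -0.24 to 0.21. For Ptp4a3 the effects differed by -1.35 ± 0.10 with an adjusted p of 1.14e-06 (edgeR's quasi-likelihood test).

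**Figure D2:**
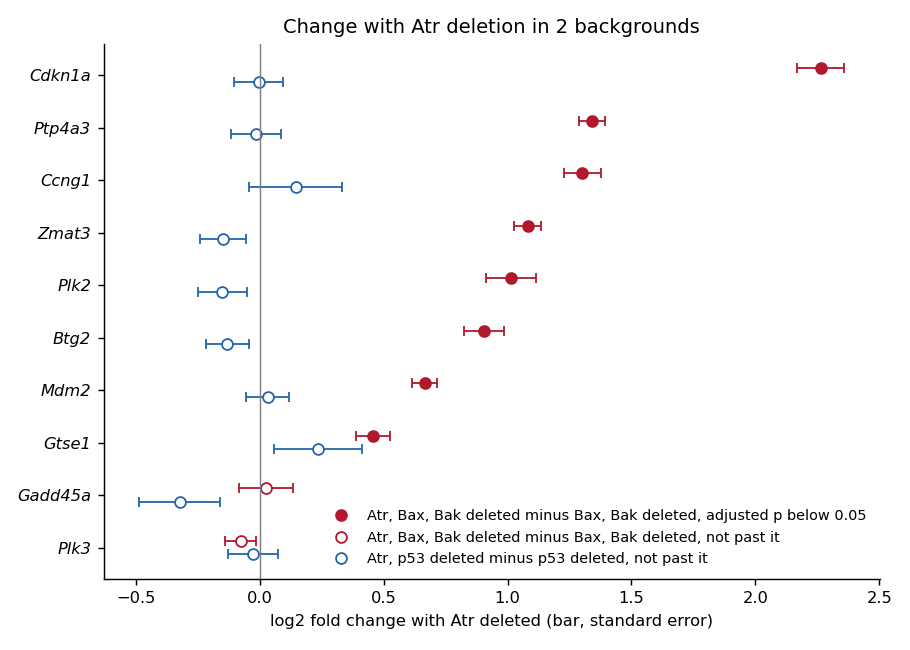
Log2 fold change of each gene with Atr deletion, without Bax and Bak (Atr-Bax-Bak over Bax-Bak) and without p53 (Atr-p53 over p53), with bars of 1 standard error and filled points for genes past the test. Without Bax and Bak the values run from 2.26 for Cdkn1a to -0.08 for Plk3, while without p53 all 10 lie between -0.32 and 0.24.

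The backgrounds were next compared at the same Atr genotype, which asks how these genes stand when p53 is deleted. Among Atr-deleted libraries, 9 of the 10 genes were lower in Atr-p53 than in Atr-Bax-Bak libraries and Plk3 was higher, and all 10 passed the test. For all genes the share called was 47.1%, with 24.3% lower and 22.8% higher. Zmat3 had the largest fall after Cdkn1a, with log2 fold changes of -1.64 ± 0.07 (adjusted p = 5.39e-11) for Zmat3 and -1.79 ± 0.09 (adjusted p = 8.17e-10) for Cdkn1a. Ccng1 fell by 1.52 ± 0.14, Btg2 by 1.23 ± 0.08, Ptp4a3 by 0.90 ± 0.07, Plk2 by 0.87 ± 0.09 and Mdm2 by 0.84 ± 0.06. Smaller falls were those of Gtse1 (-0.52 ± 0.12, adjusted p = 0.00192) and Gadd45a (-0.44 ± 0.13, adjusted p = 0.00974). Plk3 rose by 0.36 ± 0.07 (adjusted p = 5.49e-04). All adjusted p-values are from edgeR's quasi-likelihood test. No library of Atr-p53 overlapped with Atr-Bax-Bak for any of the 10, where 21.1% of all genes were wholly lower and 18.6% wholly higher. These backgrounds also differ in Bax and Bak and in their number series, so the part of p53 alone cannot be told apart. Cell type markers differed as well: of 10 each, 8 were lower in Atr-p53 libraries for oligodendrocytes (median log2 difference -1.75), astrocytes and Bergmann glia (-0.62) and GABAergic interneurons (-0.53), and 7 for Purkinje cells (-0.70) and for endothelial cells and pericytes (-0.61). For microglia 4 were higher and 4 lower. Of meninges markers 5 were lower and 0 higher (-1.20), and of granule neuron markers 5 were lower and 1 higher (-0.31). For granule neuron progenitors 1 was higher and 1 lower. The part of these shifts in the targets' differences was not tested.

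Among the controls, p53 libraries did not lie below Bax-Bak libraries for all of these genes. These groups also differ in Bax and Bak and in their number series, so the part of p53 alone cannot be told apart here either. By edgeR's quasi-likelihood test, 3 of 10 were higher in p53 libraries, 2 were lower and the other 5 did not pass, where 18% of all genes passed (9.32% higher and 8.71% lower). Cdkn1a was higher in p53 libraries, by 0.47 ± 0.10 (log2, adjusted p = 0.00482), as were Ptp4a3 (0.44 ± 0.08, adjusted p = 0.00141) and Plk3 (0.30 ± 0.08, adjusted p = 0.0173). Zmat3 was lower, by -0.42 ± 0.07 (adjusted p = 0.00161), and so was Mdm2 (-0.21 ± 0.07, adjusted p = 0.0468), whose call held in 11 of 24 alternatives. The call for Plk3 held in 21 of 24 and was lost without Bax-Bak replicate 2, p53 replicate 2 or p53 replicate 3. The remaining log2 values were -0.37 ± 0.16 for Ccng1, -0.31 ± 0.14 for Gtse1, 0.29 ± 0.11 for Plk2, -0.20 ± 0.09 for Btg2 and -0.10 ± 0.15 for Gadd45a. Without Atr-p53 replicate 2, which enters only through the shared estimate of spread, Ccng1 (adjusted p = 0.0232) and Gtse1 (adjusted p = 0.00868) passed as well, which makes 4 lower. Libraries of the groups did not overlap for 7 genes: Cdkn1a, Plk3 and Ptp4a3 lay higher in p53 libraries (16.2% of all genes did), and Ccng1, Btg2, Zmat3 and Gtse1 lay lower (15.2% of all genes did). Of 10 microglia markers, 6 were higher in p53 libraries (median log2 difference 0.67), and of 10 granule neuron markers, 4 were lower (median -0.44). The part of these marker shifts was not tested.

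The deposited values are per transcript, and they showed where within these genes the change fell. Of 35 transcripts of the 10 genes in the deposited files, 30 could be tested without Bax and Bak, of which 16 rose and 0 fell by edgeR's quasi-likelihood test, against 15.6% of all 51979 transcripts called. Without p53, 29 were tested and 0 passed, with 0 at an unadjusted p under 0.05, against 0.00956% of all transcripts called. The error with which reads were divided among transcripts is not part of these tests. Starts of transcripts within 250 bases were joined into 1 start, a grouping made after the values were seen.

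Mdm2 is known to have a second, p53-responsive promoter in its first intron, and its transcripts were described by start for that reason. The transcript from the first start, Mdm2-201, which codes for the protein, was 55.1 ± 2.91 CPM (SD, n = 5) in Atr-Bax-Bak and 50.1 ± 2.42 CPM (n = 4) in Bax-Bak libraries, with a log2 fold change of 0.09 ± 0.06 and an adjusted p of 0.357 by edgeR's quasi-likelihood test. Mdm2-209, which starts in the first intron at 117710022, right after the sequence shown above, was 13.3, 18.4, 18.6, 18.4 and 19.6 CPM in Atr-Bax-Bak libraries, against 0.975, 0, 2.66 and 2.24 CPM in Bax-Bak libraries. Its log2 fold change was 3.51 ± 0.76 with an adjusted p of 0.0127 (edgeR's quasi-likelihood test). Mdm2-209 is annotated as a transcript of nonsense-mediated decay, although this says nothing of what happens to it in these cells. In the p53 background it was at 5.39, 0.870, 1.68 and 5.77 CPM in Atr-p53 libraries and 7.50, 2.62 and 5.09 CPM in p53 libraries, which overlapped. The retained-intron transcripts Mdm2-204 and Mdm2-205 also rose, by 1.49 and 1.37 on the log2 scale.

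Summed over transcripts, the internal Mdm2 start held 16.2, 22.2, 22.4, 22.0 and 22.8 CPM in Atr-Bax-Bak libraries, against 1.86, 1.15, 3.19 and 3.43 CPM in Bax-Bak libraries, a ratio of means of 8.78. The first start held 67.2, 67.1, 64.9, 67.0 and 59.2 CPM in Atr-Bax-Bak and 51.1, 52.9, 58.4 and 53.2 CPM in Bax-Bak libraries, a ratio of 1.21. Most of the added Mdm2 RNA was assigned to transcripts of the internal start. It made up 23.3% ± 2.92 (SD, n = 5) of Mdm2 counts in Atr-Bax-Bak and 4.10% ± 1.69 (n = 4) in Bax-Bak libraries, and the shares did not overlap. A two-sided exact permutation gave p = 0.00794, the smallest that 5 against 4 libraries can give, and 0.0295 after adjustment over 26 tests of starts. Without p53 the internal start held 6.65, 2.08, 2.79 and 6.61 CPM in Atr-p53 and 9.48, 3.24 and 6.87 CPM in p53 libraries. Its share there was 9.11% ± 5.21 (n = 4) in Atr-p53 and 13.4% ± 7.10 (n = 3) in p53 libraries (exact permutation, two-sided, p = 0.371, where the smallest possible is 0.0286). Whether the shift of share differs between the backgrounds was not tested.

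Ptp4a3 showed a like pattern over its own starts. Transcripts of its internal start at 73748374, which lies upstream of the match shown above, held 18.2, 25.8, 26.2, 29.8 and 22.4 CPM in Atr-Bax-Bak libraries, against 8.03, 4.64, 2.62 and 3.53 CPM in Bax-Bak libraries. Those of its first start at 73723145 held 53.02 ± 2.21 CPM (SD, n = 5) in Atr-Bax-Bak and 26.2 ± 1.67 CPM (n = 4) in Bax-Bak libraries. Both starts were higher, by a ratio of 5.20 for the internal start and 2.03 for the first. The share of the internal start was 30.4% ± 4.21 (n = 5) in Atr-Bax-Bak and 14.6% ± 6.93 (n = 4) in Bax-Bak libraries (exact permutation, two-sided, p = 0.00794, or 0.0295 adjusted over 26 tests). In the p53 background it was 16.3% in Atr-p53 (n = 4) and 18.7% in p53 libraries (n = 3), where exact permutation, two-sided, gave p = 0.543.

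Counts of Cdkn1a were assigned almost wholly to its start at 29093769, which held 97.7% of them in Atr-Bax-Bak and 99.4% in Bax-Bak libraries. The upstream start at 29090979, right after the Cdkn1a sequence shown above, held 4.07, 5.45, 5.19, 4.85 and 5.08 CPM in Atr-Bax-Bak libraries, against 0.650, 0.158, 0.0976 and 0.293 CPM in Bax-Bak libraries. Its share was 1.90% ± 0.0338 (n = 5) in Atr-Bax-Bak and 0.541% ± 0.432 (n = 4) in Bax-Bak libraries (exact permutation, two-sided, adjusted p = 0.0295). The annotated transcript of the upstream start ends at 29099701, while Cdkn1a-201 of the main start runs to 29100722. Reads past that earlier end could not be assigned to the upstream start. In the p53 background the upstream start held 0.0550, 0, 0 and 0.0564 CPM in Atr-p53 and 0.286, 0 and 0.419 CPM in p53 libraries, where a few counts set the value. For the genes with a single described transcript, the transcript moved as the gene did: the log2 fold change was 0.84 for Btg2-201, 1.23 for Ccng1-201, 0.94 for Plk2-201 and 0.39 for Gtse1-201. Zmat3-201 rose by 1.02 ± 0.20 (adjusted p = 0.00746), while Zmat3-203 had the same estimate of 1.02 ± 0.38 and missed the threshold (adjusted p = 0.109, both edgeR's quasi-likelihood test).

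**Figure D3:**
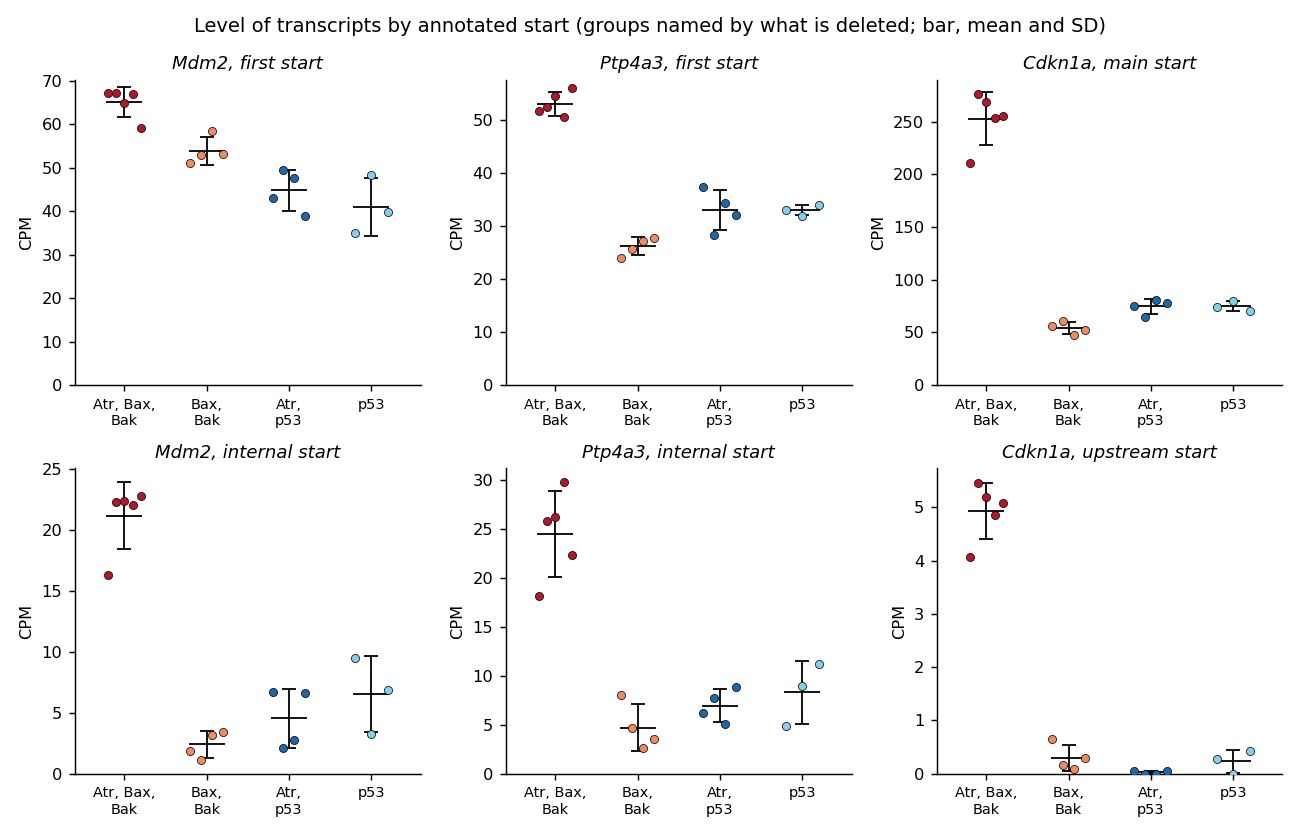
Level in CPM of the transcript starts of Mdm2, Ptp4a3 and Cdkn1a in each deep library, with Atr-Bax-Bak, Bax-Bak, Atr-p53 and p53 libraries side by side. The internal Mdm2 start reaches 16.2 to 22.8 CPM in Atr-Bax-Bak libraries and at most 3.43 CPM in Bax-Bak libraries, while the first start spans 59.2 to 67.2 CPM in Atr-Bax-Bak and 51.1 to 58.4 CPM in Bax-Bak libraries. Bars give the mean and SD.

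To compare levels between genes, values were divided by transcript length and scaled to library size (TPM). In Atr-Bax-Bak libraries (n = 5) the order was Cdkn1a at 321 ± 30.7 TPM (SD), Ccng1 at 134 ± 7.66, Mdm2 at 89.4 ± 2.07, Plk2 at 82.8 ± 7.14, Btg2 at 73.9 ± 7.30, Ptp4a3 at 55.1 ± 2.33, Zmat3 at 38.8 ± 1.39, Gtse1 at 31.3 ± 2.15, Gadd45a at 20.6 ± 1.30 and Plk3 at 18.2 ± 0.590 TPM. Neighbours in this order whose means differed by less than the sum of their SDs were Mdm2 with Plk2 and Plk2 with Btg2. In Bax-Bak libraries (n = 4) Cdkn1a was highest too, at 64.3 ± 6.70 TPM, followed by Ccng1 at 53.2 ± 5.14, Mdm2 at 48.7 ± 5.01, Plk2 at 40.1 ± 5.95 and Btg2 at 38.6 ± 1.37 TPM, and each of these 5 neighbours was within the sum of SDs of the one before. The lower genes there were Gtse1 at 22.3 ± 0.752, Ptp4a3 at 20.99 ± 1.23, Gadd45a at 19.3 ± 3.00, Plk3 at 18.7 ± 1.54 and Zmat3 at 18.0 ± 1.03 TPM, which lay close together. Without p53, Cdkn1a stood at 77.8 ± 15.6 TPM in Atr-p53 and 81.1 ± 6.39 TPM in p53 libraries, and the next highest of the 10 genes was Mdm2 at 39.6 ± 3.49 TPM in Atr-p53 and Plk2 at 44.6 ± 4.83 TPM in p53 libraries. Below it, Ccng1 at 38.8 ± 5.90 and Plk2 at 38.6 ± 6.74 TPM in Atr-p53 libraries, and Mdm2 at 42.5 ± 2.60 TPM in p53 libraries, lay within the sum of SDs. Atr-p53 replicate 2 was low on this scale, with Cdkn1a at 54.6 TPM against 83.3, 86.3 and 87.0 TPM in the other Atr-p53 libraries. Plk2 was at 29.1 TPM in replicate 2 against 38.9, 44.7 and 41.8 TPM. Mdm2 was at 35.1 TPM against 43.6, 40.4 and 39.4 TPM, so the order of Mdm2 and Plk2 turned on that library.

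Genes with the most similar profile over the 16 libraries were sought for Cdkn1a, Mdm2, Btg2 and Gtse1 among 13790 genes, by the root mean square difference of centred log2 CPM. For Cdkn1a these were Sp6 (0.16), Trim7 (0.21), Apobec1 (0.23), Dennd2c (0.24) and Nectin4 (0.26). For Mdm2 they included Pik3ip1, Ptpre, Ctsf and Dusp3, all at 0.11. Btg2 was nearest to Itpripl1 (0.14), Pcdhgc5 (0.15), Arap2 (0.15), Pls1 (0.16) and Gria3 (0.17), and those nearest to Gtse1 included Gtf3c1 (0.12), Apaf1 (0.12), Jun (0.13) and Klhl25 (0.14). When profiles were also scaled to unit SD, the nearest gene to both Mdm2 (0.15) and Btg2 (0.19) was Eda2r, a receptor gene and known p53 target. The nearest to Cdkn1a was Ak1 (0.13). Zmat3 (0.21) was among the 5 nearest to Btg2 on that scale. All these profiles share the same libraries and the split by genotype, so the likeness is a description.

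The arrest and feedback targets were set beside other lists of genes, chosen with earlier results of these data known. The 15 p53 targets of cell death include Bax itself, which was loxP-flanked in both groups of the first comparison. Without Bax and Bak, 12 of the 15 rose and 0 fell, with a median log2 fold change of 0.98, close to the 0.96 of the 10 genes. Examples were Fas, a death receptor (4.09 ± 0.17), Phlda3 (2.42 ± 0.15), Trp53inp1 (1.70 ± 0.09) and Aen, a nuclease of apoptosis (0.95 ± 0.06). Of 24 other arrest and feedback targets tested, 11 rose and 3 fell, with a median of 0.22. Eda2r (2.09 ± 0.10), Ano3 (1.66 ± 0.07), the thiamine transporter Slc19a2 (1.24 ± 0.07) and Rprm, which arrests cells in G2 (0.93 ± 0.06), rose, while Cop1 (-0.34), Ccng2 (-0.45) and Dusp14 (-0.47) fell. Of 14 targets of repair and metabolism, 7 rose and 5 fell (median 0.13), with Sesn2 at 1.59 ± 0.06 and Polk, a translesion polymerase, at 1.18 ± 0.08 against Rad51c at -0.78 and Apex1 at -0.55. All calls are by edgeR's quasi-likelihood test, with adjustment over all genes.

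Relatives of the members did not move with them as a class. Of 6 other inhibitors of cyclin-dependent kinases, Cdkn2b rose (1.67 ± 0.18) and 4 fell, among them Cdkn1b, which encodes p27 (-0.64), Cdkn2c (-0.47) and Cdkn2d (-0.39). Of 16 paralogs, 6 rose and 5 fell (median 0.03), with the mitotic kinases Plk4 (-0.83) and Plk1 (-0.58) lower and Plk5 (0.77) and Gadd45g (0.61) higher. Of 13 genes of p53 and its regulators, 2 rose and 6 fell, with the p53 relative Trp73 (2.25 ± 0.20) and Mdm4 (0.52) higher and the kinases Chek1 (-0.93) and Atm (-0.45) lower. That list holds Atr, which was loxP-flanked in Atr-Bax-Bak libraries and not in Bax-Bak libraries. Trp53 RNA itself stood at 0.03 and did not pass the test. The cell cycle lists moved the other way: all 25 genes of G2 and mitosis and all 25 of S phase fell, both with a median of -0.81. Gtse1, a gene of G2 and M phases by its role, rose while Bub1 (-1.11), Ccna2 (-1.07), Birc5 (-0.85) and Aurkb (-0.81) fell. Immediate early genes, the first to respond to many stimuli, rose in 8 of 16 (median 0.58), among them Atf3 (1.30), Arc (1.10), Fos (1.02) and Jun (0.49), while Egr2 fell (-0.61). As Btg2 and Plk2 are also known as immediate early genes, these values stand beside theirs, and their part in the rise of both was not tested.

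Without p53, none of these lists held a gene that passed the test, with medians of -0.02 for cell death targets, 0.08 for repair and metabolism, -0.01 for other arrest and feedback targets, 0.11 for G2 and mitosis and -0.14 for S phase. In the test of the difference, 11 of 15 cell death targets and 8 of 25 other arrest and feedback targets had a lower Atr effect without p53, with 0 and 1 higher. All 25 genes of G2 and mitosis and 15 of 25 of S phase had a higher one.

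**Figure D4:**
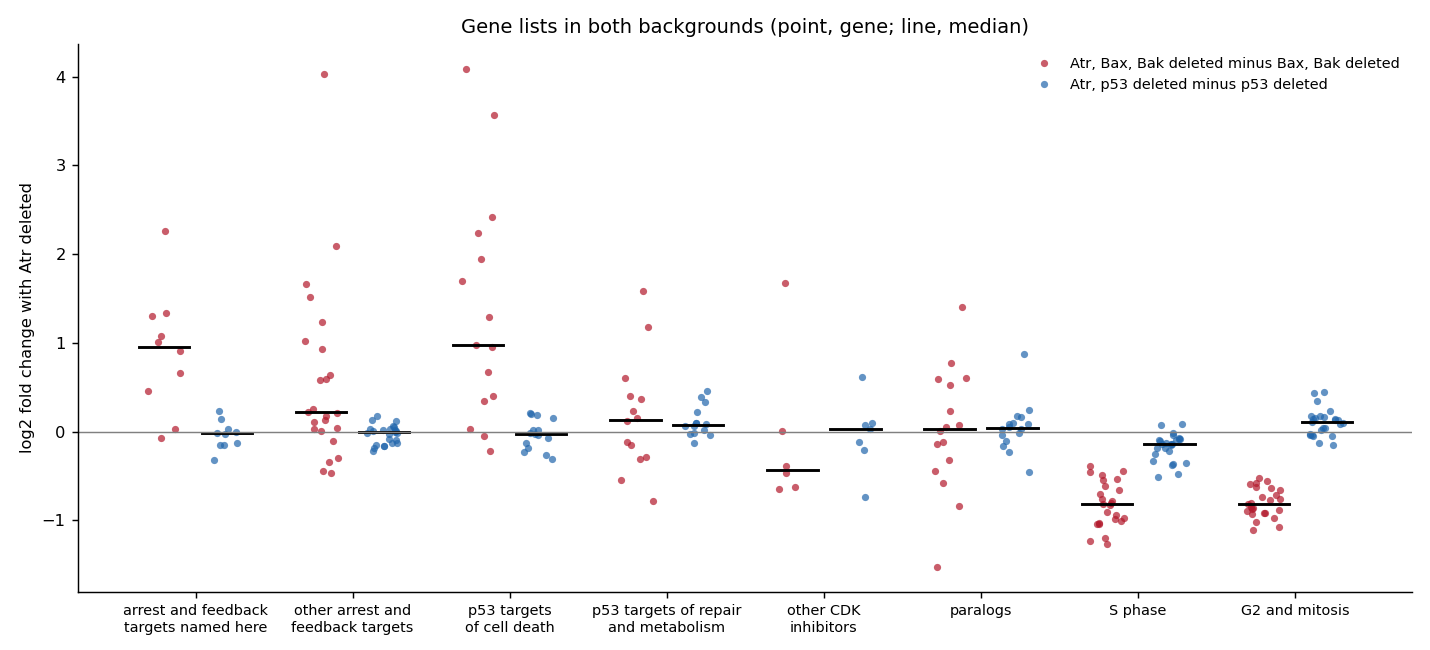
Log2 fold change with Atr deletion of every tested gene of 8 lists (1 point a gene), without Bax and Bak (Atr-Bax-Bak over Bax-Bak) and without p53 (Atr-p53 over p53), with the median of each list as a line. The 10 arrest and feedback targets centre on 0.96 without Bax and Bak and on -0.02 without p53, and the lists of G2 and mitosis and of S phase centre on -0.81 without Bax and Bak.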

How the data were processed

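Per the labels' protocols, cerebella were freed of meninges and stranded TruSeq libraries were made from poly-A selected RNA. For each lane and Ensembl transcript, the authors deposited an estimated count, with no normalization recorded. Tools named per the submitters' processing notes are edgeR and kallisto 0.42.4, and builds are GRCm38 and mm9, with roles not given. Kallisto divides reads among similar transcripts, so values per transcript and start depend on that division.

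Both lanes of each sample and all transcripts of each gene (GENCODE M21) were added, then rounded. The identical lanes of the shallow library were counted once. Tests used edgeR 4.0.16 in R 4.3.3 (TMM, default expression filter, robust quasi-likelihood, Benjamini-Hochberg at 0.05) on genotype alone. Levels are CPM on 1 joint TMM scale. Members, lists and tests were chosen with earlier results of these data known. Other genes are named as up to 4 of smallest p per list plus up to 3 moving against it, and for 4 members the 5 nearest profiles, of which some are not reported here. Simulated counts had a dispersion of 0.015 for every gene and 100 changed genes at each fold. On them, 1.5-fold and 3-fold changes were recovered at 90% and 100% without Bax and Bak (14 false calls in 17285 genes), 68% and 100% without p53 (8 in 17212) and 28% and 100% for the difference (10 in 17794).

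Alternatives used other scalings and filters, DESeq2 1.42.0, limma-voom (limma 3.58.1), no robust moderation, protein-coding transcripts, a joint fit, single control series, the shallow library and each library left out. A wider search of the genome around each start was not run, since a genome was not used here. Shares and figures used scipy 1.17.1, pandas 2.3.3, matplotlib 3.10.9 and numpy 2.4.6 in Python 3.11.15.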

Additional observations from a re-analysis of the deposited data

Results flagged for a closer look

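The Atr effect differed between the backgrounds, by the interaction test of edgeR, for 7 of the 10 arrest and feedback targets, each lower without p53 than without Bax and Bak. The differences in log2 fold change were -2.26 for Cdkn1a, -1.35 for Ptp4a3, -1.22 for Zmat3, -1.16 for Plk2, -1.15 for Ccng1, -1.03 for Btg2 and -0.62 for Mdm2. That of Mdm2 was -0.04, and not past the threshold, when protein-coding transcripts alone were summed. The 30 gene and group pairs examined left out the p53 libraries (n = 3). In those pairs no library's gap to its group passed Dixon's limit, where chance gives about 1 in 20. This included Atr-p53 replicate 2 for Ccng1 and Gtse1. Among the p53 libraries, Gadd45a was at 7.08 CPM in replicate 1 and at 10.2 CPM in replicates 2 and 3, a gap that was not tested.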

How the results depend on the processing

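The 8 rises without Bax and Bak and the 7 differences kept their direction, and no call for the 10 genes reversed. Meninges markers did turn with the controls used in the first comparison, from up to 6 higher to up to 9 lower. Genes called without p53 were 8, against 14 with no filter, 128 with DESeq2, 4 with limma-voom, 5 with protein-coding transcripts, 70 in a joint fit, 23 with the shallow library kept, 5 and 13 with controls of number series 1843 or 1845 alone, and 2 to 13 with each library left out. None was one of the 10 genes. Members lower without Bax and Bak were 0, against 1 (Plk3) with controls of number series 1842 alone, and 0 to 1 with each library left out. Genes with a difference of effects were 2929, and 1628 to 3562 with each library left out (1628 without p53 replicate 3). Between controls, members lower in p53 libraries were 2, and 1 under median-of-ratios scaling, upper-quartile scaling or no filter, and 1 to 4 with each library left out. Genes called there were 3279, and 1881 to 4702 with each library left out (1881 without p53 replicate 3, 2061 without p53 replicate 2). Upper-quartile scaling there gave 2195 higher and 1317 lower genes, against 1695 and 1584. A fit on 1 control assumes that it varies like the other samples. The causes were not tested.

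No paired analysis was possible because the labels give no replicate numbers shared between groups. Number series 1843 is in both Atr-p53 and p53, but with 1 control, whose result is given above. With 4 against 3 libraries, simulated 1.5-fold changes were recovered at 68% and 3-fold changes at 100%.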
